A study of Mus musculus with 6 samples.

Results

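The genes described here are 32 genes of the unfolded protein response and of protein folding in the endoplasmic reticulum (ER), taken by name from the 55402 features of the count matrices, of which 18687 had at least 1 unique molecular identifier (UMI, a tag that marks 1 captured RNA molecule). All 32 were found. They were read by role in 5 groups: 15 chaperones and foldases, 2 collagen chaperones, 4 genes of ER-associated degradation, 4 sensors and their factors, and 7 genes of the Atf4 and Ddit3 arm.

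Secreted and membrane proteins fold in the ER with the help of chaperones, disulfide isomerases and sugar-binding lectins. When unfolded protein builds up, sensors in the ER membrane signal to the nucleus: Atf6 releases a transcription factor, Ern1 (IRE1) splices the Xbp1 messenger into its active form, and Eif2ak3 (PERK) slows translation while favouring that of Atf4. Atf6 and spliced Xbp1 are known for activating chaperone and degradation genes, whereas Atf4 activates amino acid and redox genes together with Ddit3 (CHOP), a factor linked to cell death. In the aortic wall, smooth muscle cells (SMCs) can turn from a contractile to a matrix-secreting, modulated state, and the matrix they secrete passes through the ER. The counts are of the 3' ends of messengers, so the splicing of Xbp1, the cleavage of Atf6 and the translation of Atf4 are not seen in them.

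The libraries came from the aortic root, with the first part of the ascending aorta, of male mice at 24 weeks. The 3 groups were littermate controls with control Fbn1 and control Klf4 alleles, mice with Fbn1 C1041G/+ (a model of Marfan syndrome) and wild-type Klf4, and Fbn1 C1041G/+ mice with floxed Klf4, which the series text describes as an induced deletion in SMCs. In every group tdTomato marked the SMC lineage, 4 animals were pooled, and the digested tissue was sorted into a lineage-positive and a lineage-negative fraction, giving 6 libraries. Neither the Cre driver nor the floxed exons are named in the sources used here. With 1 library per group there is no test and no replicate check, and every 95% interval below covers counting error only.

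Klf4, the gene named in the labels, was not lower in the floxed group. In the SMC class its level was 23.8 CPM (UMIs of a gene per 1000000 UMIs of the cells; interval 22.3 to 25.3) in control, 41.3 (39.6 to 43.0) in Marfan and 116.5 (114 to 119) in the labelled Klf4-floxed library. In the lineage-negative cells Klf4 was at 277, 267 and 359 CPM in the same order. Tags at the 3' end check a deletion only if they lie in the deleted part, which the labels do not name. This library is called the labelled Klf4-floxed library, also wherever a direction is drawn from it.

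The 39728 cells kept fell into 21 clusters, of which 17 could be named from marker genes, and every class used here had all of its own markers at 5 CPM or more. Kept cells had median depths of 9881 to 12878 UMIs in 5 libraries and 2153 in the Marfan lineage-positive library, where 39.0% of barcodes had fewer than 1000 UMIs against 4.44% to 7.01% elsewhere. Pairs of libraries shared 9 to 60 barcodes, at most 0.671% of the smaller. The SMC class (lineage-positive cells of clusters 0, 1, 4, 7 and 15) held 3762 control cells, 9555 Marfan cells and 4671 cells of the labelled Klf4-floxed library, with 43217774, 56615947 and 64315822 UMIs. Different clusters held most of it: cluster 0 held 85.6% of the control cells, cluster 1 held 55% of the Marfan cells, and cluster 4 held 41.1% of the cells labelled Klf4-floxed. Cluster 1 had a median of 1349 UMIs. The 8 SMC markers summed to 48826, 50598 and 45545 CPM in the 3 genotypes, beside 684, 816 and 644 CPM for 8 fibroblast markers and 4.93, 9.45 and 3.06 CPM for macrophage markers. Pericyte markers summed to 214, 111 and 134 CPM, dendritic markers to 2.45, 26.7 and 5.43, and erythroid markers to 2.80, 80.8 and 32.7, with none of the 5 erythroid markers at 0; the part of these in the results was not tested. Cluster 5, whose leading genes Tnnt2, Psd and Gja4 include a cardiomyocyte marker, was left unnamed and outside the class; it held 24.8%, 9.63% and 17.8% of the lineage-positive cells.

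Promoter sequence is shown before the values as background, because several ER chaperones are known targets of shared elements. The part of such elements in the levels below was not tested. The 250 bases before the RefSeq start were searched on both strands in RefSeq promoters of GRCm38.p6 (mm10) for 4 motifs: the ER stress element (ERSE, the letters CCAAT, then 9 bases, then CCACG), a shorter form (ERSE-II, ATTGG, 1 base, CCACG), the core of the unfolded protein response element (UPRE, TGACG followed directly by TGG) and the amino acid response element (TGATG, 1 base, AA). A window was found for 28 members; Hyou1, Manf, Fkbp10 and Atf6 had none in the table. RefSeq starts can differ from the GENCODE gene starts of the count files: 13 of the 28 windows held bases of a GENCODE exon and 15 held none. All 250 bases of the Pdia3 and Dnajb9 windows were exonic, as were 181 of Ddit3, 120 of Hspa5, 112 of Ppp1r15a and 75 of Dnajb11, so those windows are not, or not wholly, upstream of the GENCODE gene. An ERSE match stood in 7 of 13 chaperones (53.8%) and in 8 of 28 members (28.6%), against 35 of 27025 genes (0.13%). The members were taken by name as genes of this response, with known targets among them, so their higher share is not a separate result. Hsp90b1 held 2 matches and was the single gene of the table to do so. The ERSE matches were, on the strand that reads CCAAT first, with both fixed parts in capitals and 5 flanking bases on each side:
Hspa5, chr2:34772020-34772048 (+): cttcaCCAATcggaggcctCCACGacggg
Hsp90b1, chr10:86705633-86705661 (-): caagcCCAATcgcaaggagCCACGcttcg
Hsp90b1, chr10:86705528-86705556 (+): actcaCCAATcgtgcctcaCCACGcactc
Calr, chr8:84847070-84847098 (+): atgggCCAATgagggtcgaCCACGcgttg
Canx, chr11:50325795-50325823 (-): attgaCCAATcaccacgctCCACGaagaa
Pdia6, chr12:17266486-17266514 (+): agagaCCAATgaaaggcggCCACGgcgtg
Dnajc3, chr14:118937822-118937850 (+): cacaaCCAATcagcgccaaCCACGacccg
Creld2, chr15:88819515-88819543 (-): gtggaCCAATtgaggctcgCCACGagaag
Syvn1, chr19:6046527-6046555 (+): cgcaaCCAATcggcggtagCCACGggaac

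From the RefSeq starts, the nearest ERSE match was that of Syvn1, 44 to 26 bases before it, that of Hspa5 stood 65 to 47 bases before it, and the farthest was the upstream match of Hsp90b1, 212 to 194 bases before it. From the GENCODE gene starts the order was another: the Hspa5 match began 55 bases after the start, those of Hsp90b1 began 147 and 42 bases before it, and that of Syvn1 was again 44 bases before it. The Asns element began 22 bases after its GENCODE start. Herpud1 was the member with an ERSE-II match, which 10 of 27025 genes held (0.037%), and it also held an amino acid response element that did not overlap it. Of the Atf4 and Ddit3 arm, Chac1 and Asns held an amino acid response element, so that 3 of 28 members (10.7%) did, against 3.91% of all genes. Those 4 matches are shown to set the pair in Herpud1 beside the Atf4 targets, with the fixed letters in capitals:
Herpud1, ERSE-II, chr8:94386372-94386392 (+): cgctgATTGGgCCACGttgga
Herpud1, amino acid response element, chr8:94386312-94386329 (-): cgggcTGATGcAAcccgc
Chac1, amino acid response element, chr2:119351044-119351061 (-): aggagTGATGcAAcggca
Asns, amino acid response element, chr6:7693220-7693237 (-): ccacaTGATGaAActtcc

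No member window held the UPRE core, which 0.603% of all genes did. The chaperones whose windows held none of the 4 motifs were Sdf2l1, Pdia4, P4hb, Pdia3, Dnajb9 and Dnajb11, the last 3 with the exonic windows given above. A match is a description of letters, and its absence says only that these letters are not in this window.

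**Figure D1:**
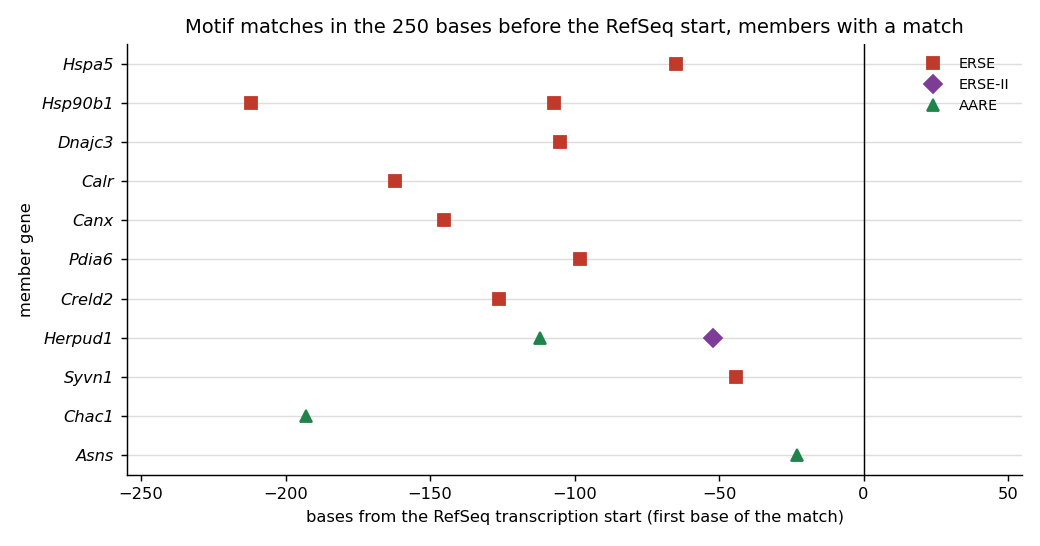
Places of the motif matches in the 250 bases before the RefSeq transcription start (x axis, bases from that start to the first base of the match) for the 11 members with a match (y axis). Squares are ERSE, the diamond is ERSE-II and triangles are amino acid response elements. The first bases of all ERSE matches lie between 212 and 44 bases before the RefSeq start. Herpud1 carries both an ERSE-II and an amino acid response element.

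In SMCs of the Marfan library the ER chaperones were higher as a group than in the control library. The 3 genes of the Atf4 and Ddit3 arm that reached 5 CPM had ratios below the chaperone median. Of these, Atf4 and Ddit3 also had intervals above 0. The contrast leaves out the genes of the arm under 5 CPM. Among them Asns was at 1.69 CPM in control and 3.5 in Marfan, with intervals that did not overlap. Those of Trib3, Chac1 and Sesn2 overlapped. Genes were compared where either library reached 5 CPM. Over 9382 such genes the median log2 ratio of Marfan to control was -0.09, and the counting interval lay above 0 for 19.3% and below 0 for 44.6%. All 15 chaperones and foldases had an interval above 0, with a median log2 ratio of 0.46. An interval clears 0 more easily for a gene with many UMIs. The shares over all genes, here and below, were not matched for level. A ratio of at least 1.5-fold higher was reached by 4 of the 15 (Sdf2l1, Manf, Hspa5 and Pdia6), against 4.1% of all genes; none was 1.5-fold lower, against 3.08%.

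Hspa5 (BiP), the ER Hsp70 that binds unfolded chains and holds the sensors inactive, was at 525 CPM in control SMCs (518 to 532), 825 in Marfan (817 to 832) and 684 in the labelled Klf4-floxed library (677 to 690). Its gene lies on mm10 chr2:34771970-34777547 on the plus strand. The Marfan library was highest and control lowest, with a log2 ratio of Marfan to control of 0.65 (0.63 to 0.67). Hsp90b1 (Grp94), the ER Hsp90, was at 491, 701 and 639 CPM in the same order, a log2 ratio of 0.51. The order of the 3 libraries was the same for both.

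Sdf2l1, which works with BiP and its co-chaperones and keeps chains from clumping, had the widest ratio of the members. Its level was 8.93 CPM in control (8.06 to 9.87), 26.1 in Marfan (24.7 to 27.4) and 18.4 in the labelled Klf4-floxed library (17.3 to 19.5). The 3 intervals did not overlap, and Marfan was 2.92-fold above control. Sdf2l1 lies on mm10 chr16:17130138-17132383 on the minus strand. Manf, a small secreted ER protein released under stress, was at 178, 289 and 247 CPM, 1.62-fold higher in Marfan than in control; its annotated span overlaps Rbm15b on the same strand, so some of its tags are uncertain.

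The disulfide isomerases followed the same order of libraries. Pdia6 was at 163 CPM in control SMCs, 256 in Marfan and 219 in the labelled Klf4-floxed library, 1.57-fold higher in Marfan than in control. Pdia3, which serves glycoproteins, had a log2 ratio of Marfan to control of 0.35, Pdia4 of 0.40, P4hb, which is also the beta subunit of collagen prolyl hydroxylase, of 0.26, and Creld2 of 0.46. The lectins Calr and Canx, which retain unfinished glycoproteins, had ratios of 0.44 and 0.27. For each of these genes Marfan was highest and control lowest.

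Of the BiP partners, Hyou1 (Grp170, a nucleotide exchange factor) was at 17.8, 25.3 and 19.5 CPM in control, Marfan and the labelled Klf4-floxed library. Dnajb11 was at 44.6, 62.0 and 54.2 CPM and Dnajc3 (p58IPK) at 219, 267 and 251 CPM. Dnajb9 (ERdj4), which recruits BiP to Ern1, had the smallest chaperone ratio, 0.21 on the log2 scale (0.11 to 0.30), from 34.5 to 39.8 CPM, and the labelled Klf4-floxed library was lowest at 33.1 CPM. Chaperones with an ERSE match had log2 ratios from 0.27 to 0.65 and those with a window but no match from 0.21 to 1.54. The widest ratio, that of Sdf2l1, came without a match, in a window free of exons.

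The collagen chaperones Serpinh1 (Hsp47), which binds procollagen, and Fkbp10, a prolyl isomerase for collagen, were higher by less. Serpinh1 was at 475, 560 and 503 CPM in control, Marfan and the labelled Klf4-floxed library, and Fkbp10 at 52.6, 61.6 and 58.2. Their log2 ratios of Marfan to control were 0.24 and 0.23. Of the degradation genes, all 4 had an interval above 0: Syvn1 (Hrd1, the ubiquitin ligase) at 0.44, Edem1 (which picks misfolded glycoproteins) at 0.30, Herpud1 at 0.12 and Sel1l (the partner of Syvn1) at 0.11. Herpud1 went from 80.1 CPM in control to 86.8 in Marfan and was at 79.5 in the labelled Klf4-floxed library.

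The sensors were split. Xbp1 was at 134 CPM in control SMCs, 162 in Marfan and 149 in the labelled Klf4-floxed library, a log2 ratio of Marfan to control of 0.27 (0.22 to 0.32). Atf6 was the single member lower in Marfan with an interval below 0, at 22.4, 19.6 and 19.98 CPM, a log2 ratio of -0.19 (-0.32 to -0.06). Eif2ak3 and Ern1 were near the 5 CPM minimum, at 5.16 and 6.25 CPM in control, and their intervals, -0.01 to 0.49 and -0.06 to 0.40, held 0.

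In the Atf4 and Ddit3 arm, 3 of 7 genes reached 5 CPM in SMCs, with a median log2 ratio of 0.16. Atf4 was at 81.6 CPM in control SMCs (78.9 to 84.3), 91.4 in Marfan (88.9 to 93.9) and 78.2 in the labelled Klf4-floxed library (76.0 to 80.4). Ddit3 was at 59.4, 68.2 and 68.3 CPM and Ppp1r15a (GADD34, which restarts translation) at 39.2, 38.8 and 40.5. The log2 ratios of Marfan to control were 0.16 (0.10 to 0.23) for Atf4, 0.20 (0.13 to 0.27) for Ddit3 and -0.01 (-0.11 to 0.08) for Ppp1r15a. All of these ratios were below the chaperone median. The intervals of Atf4 and Ddit3 overlapped that of Dnajb9, the chaperone with the smallest ratio (0.11 to 0.30). A second model that overlaps Ddit3 carries no UMIs.

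The other 4 genes of that arm were scarce in SMCs. Trib3, a pseudokinase induced by Ddit3, was at 1.11, 1.13 and 0.855 CPM, and Chac1, which degrades glutathione, at 0.787, 1.10 and 0.917. Asns, asparagine synthetase, was at 1.69 CPM in control SMCs (1.32 to 2.12), 3.5 in Marfan (3.03 to 4.02) and 3.23 in the labelled Klf4-floxed library (2.81 to 3.70). Sesn2 was at 2.08, 2.38 and 2.39. Of these 4, Asns was the gene whose control interval lay below those of both other libraries.

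**Figure D2:**
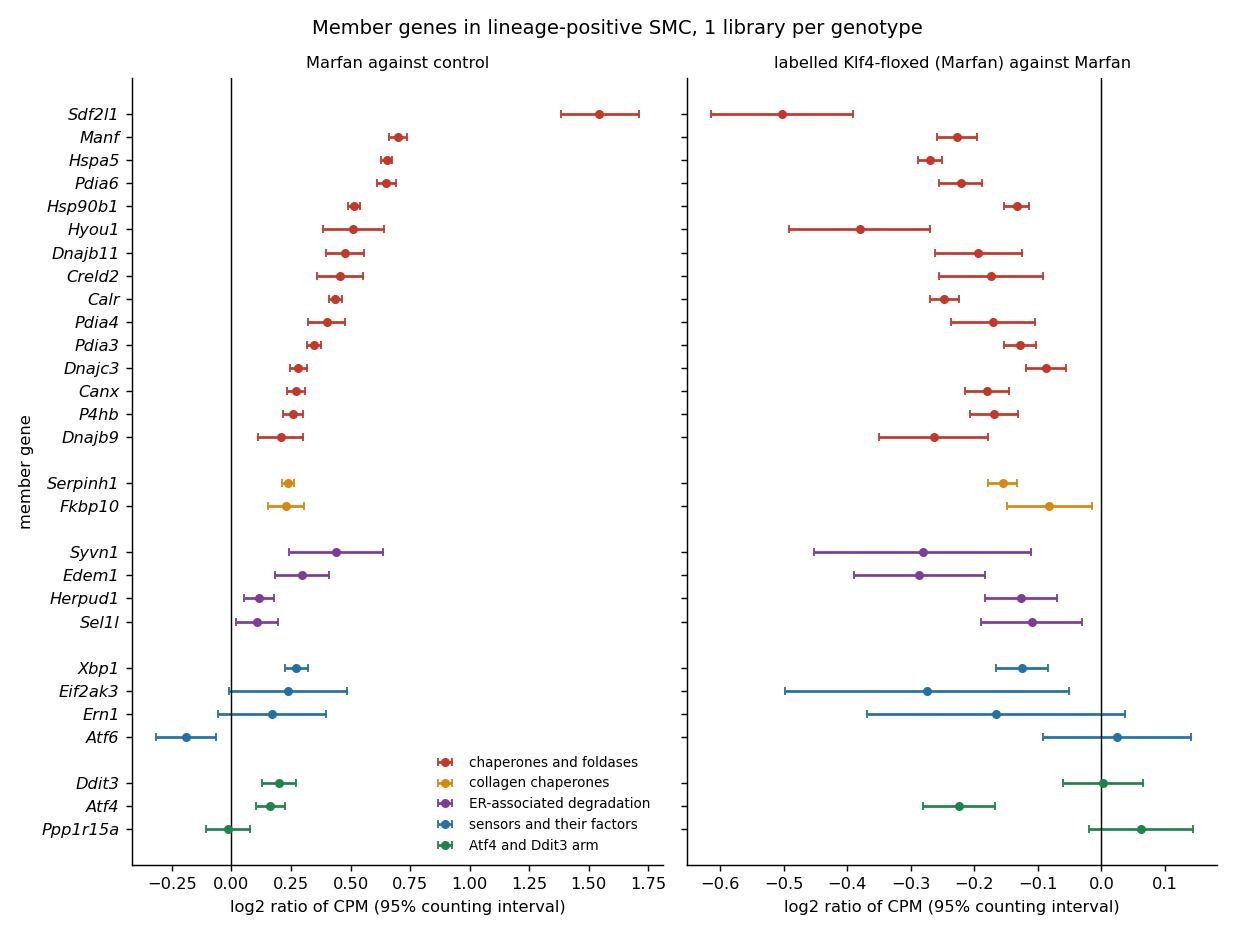
Log2 ratio of CPM (x axis, with 95% counting intervals) of each of the 28 members at 5 CPM or more (y axis, grouped by role) in the SMC class, for Marfan against control on the left and the labelled Klf4-floxed library against Marfan on the right; the x scales of the panels differ. On the left all 15 chaperones lie above 0, with Sdf2l1 farthest at 1.54, and on the right all 15 lie below 0.

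Genes of the same pathways outside the 32 had smaller median ratios of Marfan to control than the chaperones. The members and lists were chosen with earlier results of these data known, so this contrast may partly reflect that choice. Of 21 other ER folding genes, 11 had an interval above 0 and 2 below, with a median of 0.07; Fkbp11, a prolyl isomerase of secretory cells, stood apart at 11.3 CPM in control and 31.3 in Marfan, while Dnajc10 had a log2 ratio of -0.27. Of 24 translocation and N-glycosylation genes, 18 had an interval above 0 and 3 below (median 0.12; Tram1 0.49, Sec61b 0.41). Of 16 measured genes of other ER-associated degradation, 6 lay above and 1 below (median 0.03). Of 24 measured other Atf4 targets, 9 lay above and 6 below, with a median of 0.06. Those 24 spread in both directions: Gdf15, a stress-induced secreted factor, went from 3.56 to 15.5 CPM, and Vldlr had a log2 ratio of -0.78, with Shmt2 and Mthfd2 of the mitochondrial folate pathway at -0.42 and -0.33.

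Genes of the secreted matrix were also higher in the Marfan library. Of 18 matrix cargo genes, 14 had an interval above 0 and 3 below (median log2 ratio 0.39), and their summed level was 21478 CPM in control and 51024 in Marfan. Of 17 measured genes of collagen modification and export, 12 lay above and 3 below (median 0.15; P4ha1 0.59, Fkbp14 0.52). Heat shock genes outside the ER had a median of 0.09 and immediate early genes, which respond to handling, of -0.09; the part of matrix load or handling in the chaperone levels was not tested.

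The labelled Klf4-floxed library lay between Marfan and control for every chaperone but Dnajb9. Against Marfan, all 15 chaperones had an interval below 0, with a median log2 ratio of -0.19, against 18.7% of 9228 genes below and 20.7% above and a median over all genes of 0.00. None of the members was 1.5-fold lower or higher, as 0.759% and 0.379% of all genes were. Sdf2l1 had the widest ratio, -0.50 (-0.62 to -0.39), followed by Hyou1 at -0.38, Hspa5 at -0.27 and Dnajb9 at -0.26. Intervals lay below 0 for both collagen chaperones, for all 4 degradation genes (median -0.20), and among the sensors for Xbp1 and Eif2ak3.

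The Atf4 and Ddit3 arm did not move as 1 group in that comparison. Atf4 was lower in the labelled Klf4-floxed library than in Marfan, with a log2 ratio of -0.22 (-0.28 to -0.17). Ddit3 was at 0.00 (-0.06 to 0.07) and Ppp1r15a at 0.06 (-0.02 to 0.14). Both intervals held 0, which does not show that the levels were equal.

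Against control, which shares its libraries with the other comparisons, the labelled Klf4-floxed library had 13 of 15 chaperones with an interval above 0 and none below, beside 17.9% of genes above and 43.9% below. The chaperone median was 0.23. Sdf2l1 was at 1.04, Manf at 0.47, Pdia6 at 0.43, and Hspa5 and Hsp90b1 each at 0.38. Hyou1 and Dnajb9 had intervals that held 0. In this comparison Ddit3 was at 0.20 and Atf4 at -0.06.

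The Marfan SMCs were shallower and filled other clusters, so each comparison was also made within clusters. Without cluster 1 the chaperone median for Marfan against control was 0.46. Within clusters 0, 1, 4, 5 and 7 alone it was 0.28, 0.54, 0.33, 0.56 and 0.32, above 0 in each. The summed chaperone level in cluster 0 was 2830 CPM in control cells, 3520 in Marfan and 2996 in the labelled Klf4-floxed library, and in cluster 7 it was 3735, 4830 and 4406. Marfan was highest in clusters 0, 1, 4, 5 and 7. The Atf4 and Ddit3 arm had medians of 0.16, -0.01, 0.01, 0.23 and -0.44 in those clusters, on both sides of 0. These were over 3 genes in clusters 0, 4 and 5 but 4 genes in cluster 1 and 5 in cluster 7. Cluster 1 held 131 control cells and cluster 7 held 77. Members with small ratios turned direction in some clusters: Sel1l was at -0.03, -0.17, -0.12 and -0.28 in clusters 0, 1, 4 and 7, Ddit3 at -0.04, -0.05 and -0.17 in clusters 1, 4 and 7, and Atf6 at 0.74 in cluster 1.

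Single cells showed a shift over the whole distribution of chaperone counts. SMCs were thinned to 2000 UMIs each, which left out shallower cells (105 control, 5004 Marfan and 123 labelled Klf4-floxed) and kept 3657, 4551 and 4548. The 15 chaperones then gave a mean of 5.77 UMIs per control cell, 7.99 per Marfan cell and 6.89 per cell labelled Klf4-floxed, with medians of 5, 7 and 6. More than 10 chaperone UMIs, the 90th percentile of control cells, were found in 6.21%, 22.0% and 14.3% of the cells. Cells without any were rare, 0.848%, 0.242% and 0.616%. For the Atf4 and Ddit3 arm the means were 0.375, 0.417 and 0.395 UMIs, and 70.2%, 68.1% and 69.2% of cells had none.

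**Figure D3:**
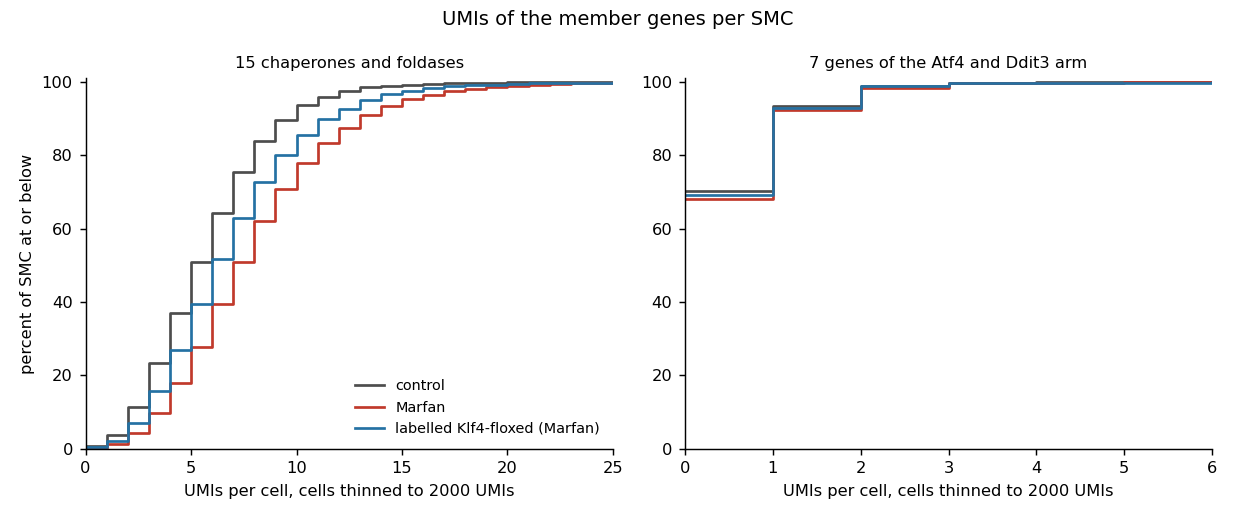
Percent of SMCs (y axis) at or below a number of UMIs per cell (x axis) after thinning to 2000 UMIs, for the 15 chaperones on the left and the 7 genes of the Atf4 and Ddit3 arm on the right; each line is 1 library. On the left the Marfan line lies farthest right (median 7 against 5 in control), and on the right the 3 lines nearly coincide, starting at 68.1% to 70.2% of cells without a UMI.

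SMC modulation was scored as the thinned UMIs of 11 genes of the modulated state, none of them among the 32: Fn1, Spp1, Vcam1, Timp1, Tnfrsf11b, Igfbp2, Fbln2, Thbs1, Lgals3, Ly6a and Cytl1. Cells were put in 4 bins of 0, 1 to 2, 3 to 6 and 7 or more score UMIs, and members were read at full depth. The bins are ranges of a score, not cell types: every cell of the lowest and second bins lay within 1 UMI of a border, as did 21 of 107 control, 185 of 1552 Marfan and 145 of 1286 labelled Klf4-floxed cells of the highest. The highest bin held 107 control cells (2.93%), 1552 Marfan cells (34.1%) and 1286 cells labelled Klf4-floxed (28.3%). Cluster 7 made up 29.9%, 48.6% and 55.1% of it. Fibroblast markers were at 638, 523 and 529 CPM in the lowest bin and 1466, 1002 and 776 in the highest, and erythroid markers at 563 CPM in the lowest Marfan bin against 3.17 in the lowest control bin; their part in the values below was not tested.

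Within each library, chaperones were higher in more modulated SMCs. All 15 were above 0 in all 3 libraries for the highest against the lowest bin, against 26.2% of 9446 genes, and 13 had a counting interval above 0 in all 3, against 9.41%. The median of the 15, as a mean over the libraries, was 0.39 on the log2 scale, and that of all genes -0.04. Of the 28 measured members, only Sdf2l1 (1.13) and the sensor Eif2ak3 (0.71) reached at least 1.5-fold. Among all genes 8.96% reached it, a larger share.

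Hspa5 went from 505 CPM in the lowest bin through 531 and 543 to 697 in the highest in control. In Marfan it was 739, 778, 817 and 926, and in the labelled Klf4-floxed library 601, 637, 679 and 762. Each bin was above the one before it in all 3 libraries, which held for 9 of the 15 chaperones, Hspa5 among them, against 5.39% of all genes. The lowest Marfan bin was at a higher CPM than the highest control bin, with intervals that overlap.

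Sdf2l1 was at 7.97, 8.75, 10.5 and 19.8 CPM over the control bins. It was at 16.7, 18.7, 22.7 and 37.3 in Marfan and at 12.5, 14.9, 19.1 and 23.3 in the labelled Klf4-floxed library. The log2 ratios of highest to lowest bin were 1.31 (0.71 to 1.87), 1.16 (0.88 to 1.45) and 0.91 (0.62 to 1.21), whose intervals overlap. Pdia4 had ratios of 0.65, 0.35 and 0.61, Pdia6 of 0.46, 0.46 and 0.45, and Manf of 0.55, 0.42 and 0.28. Calr, at 0.23, 0.15 and 0.25, was among the smallest.

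Serpinh1 was higher along the bins in each library, from 468 to 554 CPM in control, from 528 to 596 in Marfan and from 465 to 540 in the labelled Klf4-floxed library. Fkbp10 had log2 ratios of 0.31, 0.42 and 0.46. Of the degradation genes Sel1l was the one with intervals above 0 in all 3 libraries, at 0.60, 0.26 and 0.32. Herpud1 was at 81.8 CPM in the lowest and 81.7 in the highest control bin, and its ratio was 0.33 in Marfan and 0.12 in the labelled Klf4-floxed library.

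Among the sensors Eif2ak3 had ratios of 1.01 (0.12 to 1.80), 0.14 (-0.37 to 0.68) and 0.99 (0.42 to 1.60), from levels of 3.24 to 9.57 CPM. Xbp1 was nearly level, from 134 to 141 CPM in control, 162 to 169 in Marfan and 154 to 146 in the labelled Klf4-floxed library. Atf6 had ratios of -0.02, 0.02 and 0.22, and each interval held 0.

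The 3 measured genes of the Atf4 and Ddit3 arm did not follow the score in 1 direction, with a median of 0.01. Among its genes under 5 CPM, Asns had log2 ratios of 1.58, 1.04 and 0.66 in control, Marfan and the labelled Klf4-floxed library. Sesn2 had 1.15, 1.52 and 0.71, and Trib3 had 0.38, 1.01 and -0.36. Chac1 had no UMI in the highest control bin and ratios of 0.27 and 1.32 in the other libraries. Counting intervals lay above 0 in 2 libraries for Asns, in 1 for Sesn2 and in 0 for Trib3 and Chac1. Atf4 went from 98.7 through 94.9 and 91.9 to 81.1 CPM in Marfan, and from 89.2 through 82.2 and 76.7 to 70.7 in the labelled Klf4-floxed library. In control it was at 80.9 in the lowest and 80.4 in the highest bin. Atf4 was the single measured member below 0 in all 3 libraries, as 34% of all genes were. Its log2 ratios were -0.01 (-0.28 to 0.25), -0.28 (-0.41 to -0.15) and -0.33 (-0.46 to -0.21).

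Ddit3 was at 57.6 CPM in the lowest and 83.0 in the highest control bin, a log2 ratio of 0.52 (0.25 to 0.79). In Marfan its ratio was -0.02 and in the labelled Klf4-floxed library 0.03, with intervals that held 0. Ppp1r15a had ratios of 0.42 (0.07 to 0.75), -0.01 (-0.22 to 0.19) and -0.36 (-0.54 to -0.19), on both sides of 0. The highest control bin rests on 107 cells.

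**Figure D4:**
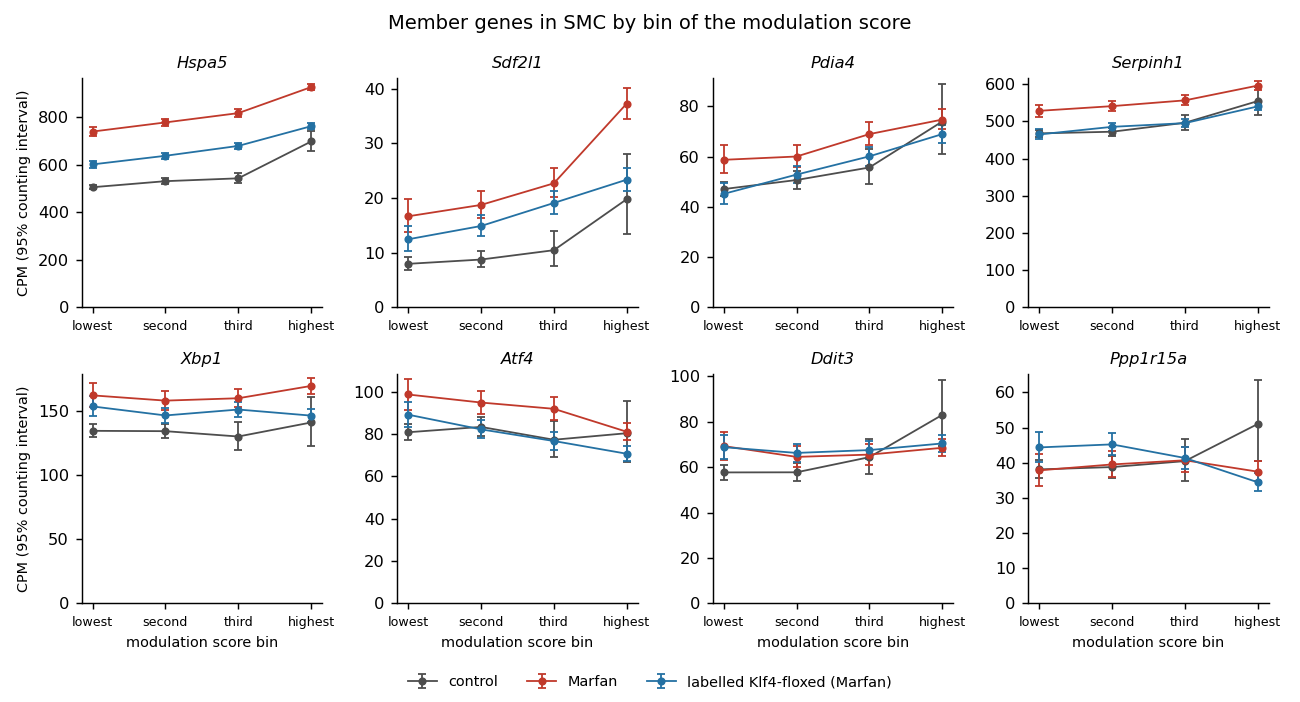
CPM (y axis, from 0, with 95% counting intervals) of 8 members by bin of the modulation score (x axis, lowest to highest) in the SMC class; each line is 1 library. Hspa5, Sdf2l1, Pdia4 and Serpinh1 stand higher in each next bin in the 3 libraries, Xbp1 is nearly level, and Atf4 stands lower in each next bin in Marfan (98.7 to 81.1 CPM) and in the labelled Klf4-floxed library (89.2 to 70.7 CPM).

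Other genes of the pathways were also read along the score. The median over the libraries was 0.19 for other ER folding genes, where Fkbp11 (1.90) and Txndc5 (0.65) were highest, 0.20 for translocation and N-glycosylation (Tram1 0.74), 0.08 for other degradation genes (Os9 0.69) and 0.18 for collagen modification and export (P3h3 0.78, P4ha2 -0.49). Other Atf4 targets had a median of 0.12 and went both ways, with Gdf15 at 1.56, Stc2 at 1.47 and Nupr1 at 1.24 beside Vldlr at -0.87 and Atf3 at -0.76. The 18 matrix cargo genes, none of them in the score, had a median of 0.93 and contractile genes of -0.68. Immediate early genes were at -0.24.

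Within each bin the Marfan SMCs had the higher chaperone level, but the bins did not hold the score itself level between the libraries. For Marfan against control the chaperone medians in the 4 bins, from lowest to highest, were 0.32, 0.40, 0.41 and 0.28. Intervals lay above 0 for 14, 14, 13 and 9 of the 15, against 8.69%, 10.2%, 8.13% and 5.57% of all genes. The summed level went from 2785 CPM in the lowest to 3547 in the highest control bin and from 3604 to 4526 in Marfan. The score genes also summed to more in Marfan than in control in each bin. They were at 217 CPM in control and 427 in Marfan in the lowest bin, and at 5450 and 8224 in the highest. The part of this remaining difference in modulation in the within-bin ratios was not tested.

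The labelled Klf4-floxed library was lower than Marfan within each bin, with chaperone medians of -0.25, -0.21, -0.20 and -0.17. Intervals lay below 0 for 12, 13, 14 and 14 of the 15, against 8.77%, 11.6%, 11.6% and 12.1% of all genes. Its summed level was 3063 CPM in the lowest and 3971 in the highest bin. In thinned cells of the lowest bin alone, 4.99% of control, 16.7% of Marfan and 7.01% of cells labelled Klf4-floxed had more than 10 chaperone UMIs.

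Within each bin the medians of the Atf4 and Ddit3 arm and of the matrix genes for Marfan against control were below the chaperone median. The medians of the arm for Marfan against control were 0.26, 0.16, 0.02 and -0.28 from the lowest to the highest bin. Matrix cargo had medians of 0.02, 0.02, 0.04 and 0.07, near 0 in each bin. Their summed level was higher in Marfan, at 18144 CPM in control and 20223 in Marfan in the lowest bin, 20767 and 27813 in the second, 28288 and 43093 in the third, and 54990 and 85717 in the highest.

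Across cell classes, SMCs were at the low end for chaperones and fibroblasts at the high end. Among 6 classes with all 3 libraries (SMCs, fibroblasts, valve interstitial or chondrocyte cells, macrophages or monocytes, endothelial and lymphatic endothelial cells), the mean over libraries was highest in fibroblasts for 12 of 15 chaperones, against 12.4% of 12030 genes, and lowest in SMCs for 13, against 31.2%. SMCs are from the lineage-positive and the other classes from the lineage-negative libraries. The 15 chaperones summed to 2878, 4023 and 3512 CPM in SMCs and to 5826, 7779 and 6917 in fibroblasts, in the order control, Marfan and labelled Klf4-floxed library. In the other 4 classes the sums lay between 4291 and 6549 CPM, and Marfan was highest in each of the 6 classes. The few lineage-positive cells of fibroblast cluster 3, sorted with the SMCs, had 7568 CPM in Marfan (69 cells) and 6182 in the labelled Klf4-floxed library (111 cells), also above SMCs.

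Hspa5 was at 1287, 1693 and 1527 CPM in fibroblasts, a mean 2.22-fold that of SMCs. Its lowest fibroblast library lay below the highest valve library at 1516 CPM, so the first and second classes overlapped. The highest class stood apart from all others for 4 of 15 chaperones, against 39.4% of all genes: Hyou1, Dnajb9 and Dnajc3 in fibroblasts and Sdf2l1 in macrophages. Every SMC library lay below every library of the other classes, of any genotype, for 7, against 12.2% of all genes: Hsp90b1, Dnajb9, Dnajb11, Canx, Pdia3, Pdia4 and Pdia6.

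Sdf2l1 was at 152, 198 and 179 CPM in macrophages, a mean of 176 against 69.1 in fibroblasts and 17.8 in SMCs. The macrophage mean was 9.92-fold that of SMCs. Calr was at a mean of 769 CPM in macrophages and 764 in fibroblasts, which overlapped. Canx was highest in lymphatic endothelial cells, with a mean of 379 CPM.

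The collagen chaperones were highest in fibroblasts and valve cells and lowest in macrophages. Serpinh1 was at 704, 992 and 818 CPM in fibroblasts and at 20.7, 32.8 and 37.5 in macrophages, a 27.7-fold difference of means. Fkbp10 was highest in valve cells with a mean of 94.3 CPM and stood apart there. Its macrophage mean was 3.06 CPM, 30.8-fold lower.

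Macrophages were the highest class for Herpud1 (183 CPM), Edem1 (53.6), Atf6 (59.2), Atf4 (207), Ppp1r15a (182) and Sesn2 (8.21). Atf4 was at 219, 196 and 208 CPM there, apart from every other class. Ppp1r15a was at 216, 150 and 181 CPM, a mean 4.61-fold that of SMCs. Endothelial cells were highest for Ern1 (25.1 CPM) and Eif2ak3 (19.3 CPM), and fibroblasts for Xbp1 (219 CPM) and Ddit3 (91.6 CPM).

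Trib3, nearly absent from SMCs at a mean of 1.03 CPM, was at 30.1 CPM in lymphatic endothelial and 16.4 in endothelial cells. Asns was also highest in lymphatic endothelial cells, at 11.9 CPM. The summed Atf4 and Ddit3 arm was 186, 206 and 194 CPM in SMCs, 377, 371 and 393 in fibroblasts and 529.5, 445 and 466 in macrophages. Macrophages were highest for it in every library among the 6 classes.

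**Figure D5:**
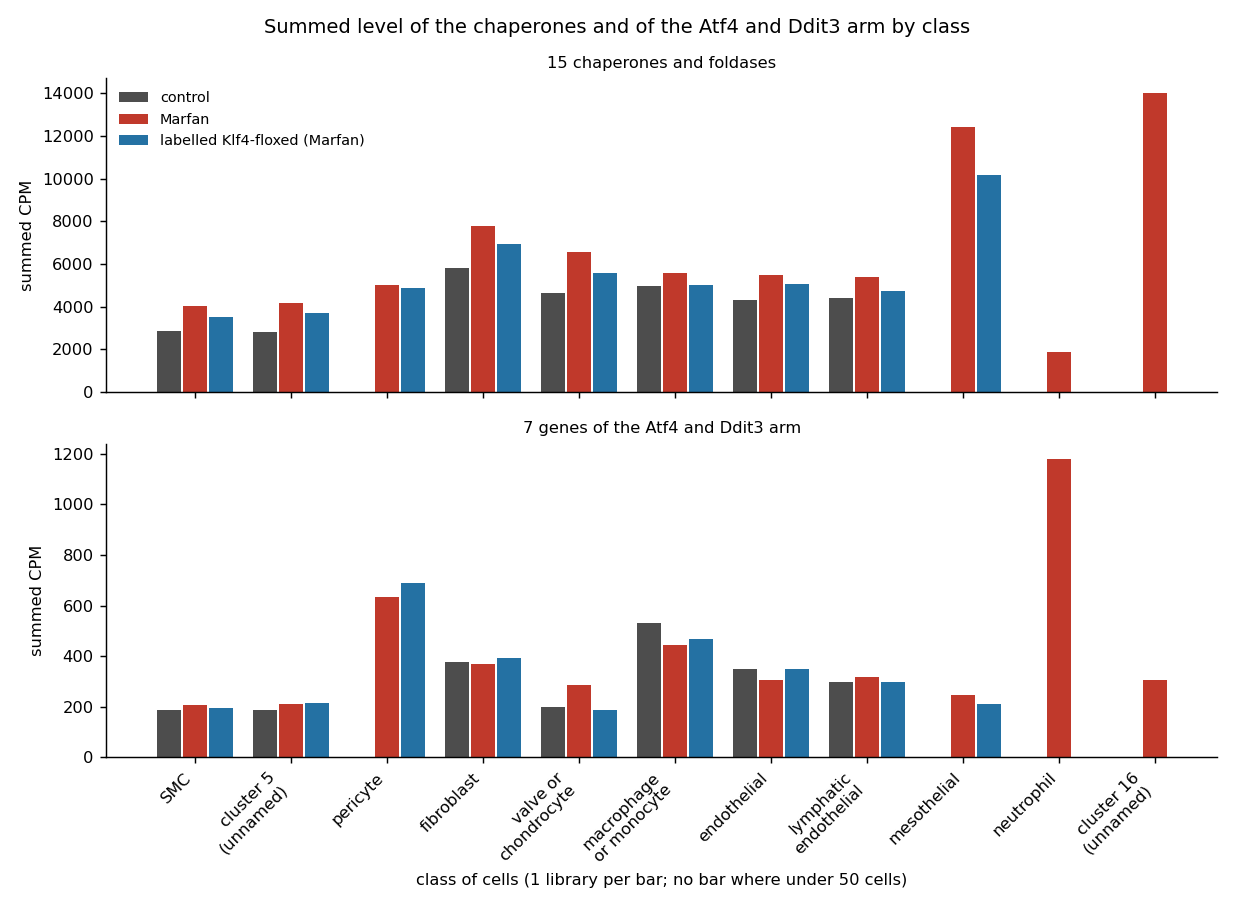
Summed CPM (y axes, from 0) of the 15 chaperones (top) and of the 7 genes of the Atf4 and Ddit3 arm (bottom) by class of cells (x axis); each bar is 1 library, and a bar is missing where a class had under 50 cells. Chaperones are highest in cluster 16 (14004 CPM) and mesothelial cells and lowest in neutrophils (1859 CPM), where the Atf4 and Ddit3 arm is highest (1180 CPM).

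The difference of Marfan to control in the chaperones was not limited to SMCs. In fibroblasts 14 of 15 chaperones had an interval above 0 and 1 below (median 0.44), against 20.1% and 30.2% of all genes. In valve cells 12 lay above and 0 below (median 0.55), against 10.8% and 13.9%. Macrophages had 9 above and 4 below (median 0.18), against 11.3% and 23%, and endothelial cells 7 above and 1 below (median 0.25), against 8.15% and 17.8%. Medians of all genes in those classes lay between -0.18 and -0.04. Whether the classes differ in this was not tested.

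Sdf2l1 was at 46.3 CPM in control and 95.9 in Marfan fibroblasts, a log2 ratio of 1.05 (0.97 to 1.13). In valve cells it was at 33.1 and 70.0 CPM and in endothelial cells at 24.8 and 62.9, ratios of 1.08 and 1.34. In macrophages, the class with the highest level, its ratio was 0.38 (0.26 to 0.51). Sdf2l1 was thus higher in the Marfan library in all 5 classes compared.

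Serpinh1 in fibroblasts went from 704 to 992 CPM, a log2 ratio of 0.50, beside 0.24 in SMCs. Xbp1 had ratios of 0.21 in fibroblasts and 0.30 in valve cells, and -0.13 (-0.27 to 0.01) in macrophages. Atf6 was lower in Marfan fibroblasts (-0.15) and endothelial cells (-0.72, -1.31 to -0.13). Dnajb9, the chaperone with the smallest ratio in SMCs, was at -0.14 in fibroblasts.

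The labelled Klf4-floxed library, in lineage-negative cells, was lower than Marfan in the same direction. Fibroblasts had 0 chaperones above and 14 below 0 (median -0.15), against 19.7% and 26.2% of all genes, and valve cells 0 above and 10 below (median -0.20), against 5.34% and 10.1%. Macrophages had 8 below (median -0.13), against 15.8% of genes above and 10.6% below, and endothelial cells 3 below (median -0.12), against 9.49% above and 6.43% below. Sdf2l1 had log2 ratios of -0.55 in fibroblasts and -0.29 in valve cells. Herpud1 was lower in all 4 classes, at -0.44 in fibroblasts, -0.48 in valve cells, -0.39 in macrophages and -0.36 in endothelial cells.

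The Atf4 and Ddit3 arm differed by class. In valve cells Atf4 was at 78.9 CPM in control cells, 113 in Marfan and 72.6 in the labelled Klf4-floxed library, and Ppp1r15a at 40.4, 69.2 and 37.3. Immediate early genes in valve cells had medians of 0.46 for Marfan against control and -0.52 for the labelled Klf4-floxed library against Marfan, and heat shock genes of 0.39 and -0.48; their part in these values was not tested. In fibroblasts Ppp1r15a went the other way, at 145, 119 and 164 CPM. In macrophages it was at 216, 150 and 181 CPM, beside a median of -0.35 for immediate early genes in Marfan against control. Asns was higher in Marfan fibroblasts, at 3.47, 7.59 and 4.85 CPM, a log2 ratio of Marfan to control of 1.13.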

How the data were processed

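Per the file headers, the deposited matrices hold whole-number UMI counts per gene and barcode from Cell Ranger 6.1.2, and per the submitters' processing notes the build was mm10; whether the authors filtered cells further is not given in the sources used here. Barcodes with at least 1000 UMIs, 500 genes and at most 10% mitochondrial UMIs were kept. Doublets were removed with Scrublet, by its automatic threshold in the Marfan and labelled Klf4-floxed lineage-negative libraries and otherwise as the top scores at 0.8% per 1000 cells, which left 39728 cells. Cells were clustered on 2000 variable genes (scanpy 1.11.5, 30 components, 15 neighbours, Leiden resolution 1, leidenalg 0.10.2) and clusters named from 19 marker sets; the conditions for naming were set after the clusters had been seen.

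Counts were summed per library and class. Ratios of CPM were given exact conditional binomial 95% intervals and levels exact Poisson intervals (scipy 1.17.1, numpy 2.4.6, pandas 2.3.3, matplotlib 3.10.9, Python 3.11.15). A gene was compared where either library reached 5 CPM, and counted as higher or lower at 1.5-fold or by its interval. In simulated data for the SMC class, Marfan against control, 95.4% of intervals over 9219 genes held the true value. Those data were drawn with counting error only, as the intervals assume. The share thus checks the calculation and says nothing of variation between cells, animals or libraries. All 32 members are reported, and of the other lists up to 3 genes with the largest and 3 with the smallest ratio. The members and lists were chosen with earlier results of these data known. Class levels are compared within a gene only, as 3' tags do not allow comparison between genes. Alternatives were other depth, mitochondrial and doublet filters, clusterings, scalings, weightings, bins and score genes, and, chosen after seeing the data, single clusters.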

Additional observations from a re-analysis of the deposited data

Results flagged for a closer look

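Some members had counting intervals on opposite sides of 0 in SMCs and in another class for the same comparison; the difference between the classes was not tested. For Marfan against control, Dnajb9 had a log2 ratio of 0.21 in SMCs (34.5 to 39.8 CPM) and of -0.14 in fibroblasts, -0.28 in macrophages and -0.42 in endothelial cells (92.5 to 69.0 CPM). In macrophages Dnajc3 was at -0.13, Canx at -0.17, P4hb at -0.18, Sel1l at -0.32 and Atf4 at -0.16, against 0.28, 0.27, 0.26, 0.11 and 0.16 in SMCs. Herpud1 was at -0.49 in endothelial cells and 0.12 in SMCs. For the labelled Klf4-floxed library against Marfan, Sel1l was at 0.52 in endothelial cells (0.13 to 0.90) and -0.11 in SMCs.

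The highest chaperone level stood outside the comparisons. Cluster 16, unnamed, whose leading genes were the cytokines Il11, Il6 and Cxcl5, held 233 cells of the Marfan lineage-negative library, and the 15 chaperones summed to 14004 CPM there. Hspa5 was at 3772 CPM and Manf at 1455, while Ddit3 was at 37.5 and Atf4 at 190.3 CPM.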

How the results depend on the processing

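The chaperone medians kept their direction in SMCs, between bins, within bins and in lineage-negative classes under every alternative run. For Marfan against control in SMCs (0.46) the chaperone median was 0.55 with median-of-ratios scaling and 0.28, 0.54, 0.33, 0.56 and 0.32 in clusters 0, 1, 4, 5 and 7 alone; the cause was not tested. That of the Atf4 and Ddit3 arm (0.16) was 0.25 with median-of-ratios scaling, 0.057 in thinned cells, 0.0084 and 0.23 in clusters 4 and 5 alone, and turned direction in clusters 1 (-0.00979, over 4 genes) and 7 (-0.44, over 5 genes), against 3 for the reported value. For the labelled Klf4-floxed library against Marfan the chaperone median (-0.19) was -0.40 in cluster 1 and -0.13 in cluster 7. The median of the arm (0.00) was -0.11 with each cell weighted alike, -0.11 from 1 CPM, 0.34 in cluster 1 (over 5 genes) and -0.14 in cluster 7. In the second bin the chaperone median (0.40) was 0.47 with median-of-ratios scaling. Members at least 1.5-fold higher numbered 4 for Marfan against control and 1 at 2-fold; between bins they numbered 2, 1 at 2-fold and 1 from 20 CPM, where fewer genes are tested.

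Single members that turned direction for Marfan against control were Fkbp10 (-0.019) and Herpud1 (-0.00870) in cluster 0, Herpud1 (-0.060) in cluster 4, Sel1l in clusters 0, 1, 4 and 7 (-0.028, -0.17, -0.12, -0.28), Syvn1 (-0.067) in cluster 7, Atf6 (0.74) in cluster 1, and Ddit3 in clusters 1, 4 and 7 (-0.040, -0.050, -0.17). For the labelled Klf4-floxed library against Marfan, Dnajc3 was at 0.00528 with each cell weighted alike and Syvn1 at 0.022 in cluster 0. Of 1008 such values 275 moved and 14 turned; of 308 between bins 23 moved. With median-of-ratios scaling all genes had a median of 0.00 in place of -0.09 and turned no member with an interval clear of 0. Cluster 1 is shallow and 131 control cells fell in it, and 77 control cells fell in cluster 7, which limits the values of both. Members under 5 CPM were left out of the reported medians and counts by the chosen minimum.

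No paired analysis was possible because each genotype and fraction is 1 library. No cluster was named modulated SMC and no SMC cluster fell under the limit on low depth, so comparisons of such clusters gave no value.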

Other observations

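Classes with under 50 cells in some genotype are given as values. Neutrophils, 202 cells of the Marfan lineage-negative library, had a summed chaperone level of 1859 CPM and a summed Atf4 and Ddit3 arm of 1180 CPM. In them Ppp1r15a was at 527 CPM, Ddit3 at 348, Sesn2 at 89.4 and Xbp1 at 628, beside 17065 summed CPM of immediate early genes. Mesothelial cells, 68 in Marfan and 50 in the labelled Klf4-floxed library, had 12438 and 10164 CPM for the chaperones and 244 and 209 CPM for the arm. Hspa5 was at 2702 and 2099 CPM there and Sdf2l1 at 271 and 194.

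Pericytes, sorted with the SMC lineage, had a summed Atf4 and Ddit3 arm of 636 and 688 CPM in Marfan and the labelled Klf4-floxed library. Ppp1r15a was at 289 and 313 CPM and Ddit3 at 132 and 161. The 108 and 89 pericytes also had 9062 and 10476 summed CPM of immediate early genes and 16597 and 21291 of heat shock genes; the part of these in the values was not tested.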
